A study of Mus musculus with 4 samples.

Results

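Goblet cell program genes were followed in adenoma RNA from ApcMin mice, which carry a truncating Apc allele and develop intestinal adenomas. The genes are 33 named goblet cell genes: 10 secretory products, 9 transcription factors, 6 glycosyltransferases and 8 genes of protein folding, granule trafficking and other intracellular roles. They were fixed by name, with earlier results of these data known. Of the 33, 32 were listed among the 17762 genes found in at least 1 library, 31 were listed in all 4 libraries, and Fer1l6, a ferlin gene, was listed in none. All 32 listed genes passed the filter on low counts and were tested.

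The 2 Strap KO libraries came from ApcMin mice that the study's design text names StrapIEKO, an abbreviation it does not expand, and the 2 Strap WT libraries came from ApcMin mice labelled Strap WT. Both groups were C57BL/6 and 110 days old, so the controls carry the Apc allele too and no tissue without it was compared. Strap encodes a WD-repeat protein that binds serine/threonine kinase receptors, and the study's title places it in stemness and tumorigenesis driven by mutated Apc. The sources used here name neither a Cre driver nor the number of animals behind a library.

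Goblet cells are the mucus-secreting cells of the intestinal epithelium. They arise from progenitors that escape Notch signalling and express Atoh1, and they mature under factors such as Spdef and Klf4. Their mucin is folded in the endoplasmic reticulum, receives O-linked sugars in the Golgi, and is stored in granules that fuse with the apical membrane. Mucus-forming cells are thinned out in many conventional intestinal adenomas.

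Library depth was similar, with total expected counts between 14084814 and 15640931, and each library listed 15270 to 16227 genes. Strap itself was at 20.5 and 24.8 CPM (reads scaled to library size and composition) in KO adenomas, against 157 and 112 CPM in WT adenomas. The groups did not overlap, and the log2 fold change was -2.57 (edgeR quasi-likelihood test, Benjamini-Hochberg adjusted p = 0.0942; DESeq2 adjusted p = 8.42e-14). The tissue is labelled colon adenoma, while the protocol speaks of intestinal adenomas. Of 10 colon markers, 8 were low in every library, at 13.4 CPM or less, among them Car1 (at most 4.22 CPM) and Aqp8 (at most 0.834 CPM). The other two were well expressed, with Car4 at 323 and 220 CPM in KO and 157 and 107 CPM in WT adenomas, and Slc26a3 at 129 and 178 CPM in KO and 255 and 148 CPM in WT adenomas. Markers of the Paneth cell, which is typical of the small intestine, summed to 17910 and 10420 CPM in KO and 13780 and 39640 CPM in WT adenomas. Xist was at 197 CPM in KO replicate 1 and 0.954 CPM in KO replicate 2, against 968 CPM in WT replicate 1 and 0.195 CPM in WT replicate 2, so libraries of the same number share this pattern in both genotypes. Ddx3y, a Y-linked gene, ran the other way. It was at 0 and 33.3 CPM in KO replicates 1 and 2, and at 0 and 39.1 CPM in WT replicates 1 and 2. Replicate 1 thus had the pattern of female tissue and replicate 2 that of male tissue, so the libraries of each genotype came from different animals. No label gives the number of animals per library, and p-values measure only the spread between these 4 libraries.

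Most goblet genes had a lower fitted level in KO adenomas, but none was called in the main test after adjustment over all tested genes. No goblet gene passed edgeR at an adjusted p under 0.05, in a comparison where 0.00783% of the 12769 tested genes were called higher and none lower. Strap itself was not called by edgeR either (adjusted p = 0.0942). Before adjustment, 6 goblet genes were lower and none higher at p under 0.05, against 8.69% of all tested genes lower and 7.08% higher. The fitted difference was below 0 for 27 of the 32 goblet genes, against 49.7% of all tested genes, with a median log2 fold change of -0.45 against 0.00 over all tested genes. DESeq2 called 2 goblet genes lower, Scin and Gcnt3, where its background was 3.26% lower and 1.77% higher. In bulk adenoma RNA, a difference in goblet cell number and one in RNA per goblet cell cannot be told apart.

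The summed level of the 32 listed genes was 9107 and 8478 FPKM (fragments per kilobase of transcript, scaled to library size) in KO adenomas, against 5142 and 13160 FPKM in WT adenomas. The KO libraries lay close together and between the WT libraries. As a share of all expected counts, the goblet genes made up 0.949% and 1.09% of the KO libraries, against 0.714% and 1.83% of the WT libraries. Secretory products supplied most of that sum, with 8057 and 7333 FPKM in KO adenomas against 4365 and 11570 FPKM in WT adenomas. The transcription factors and the glycosyltransferases gave another order: the factors summed to 122.7 and 148.9 FPKM in KO against 191.6 and 230.8 FPKM in WT adenomas, and the glycosyltransferases to 74.4 and 95.9 FPKM in KO against 106.8 and 114.3 FPKM in WT adenomas. For both of these roles the summed levels of the genotypes did not overlap, and no test was made on the sums.

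**Figure D1:**
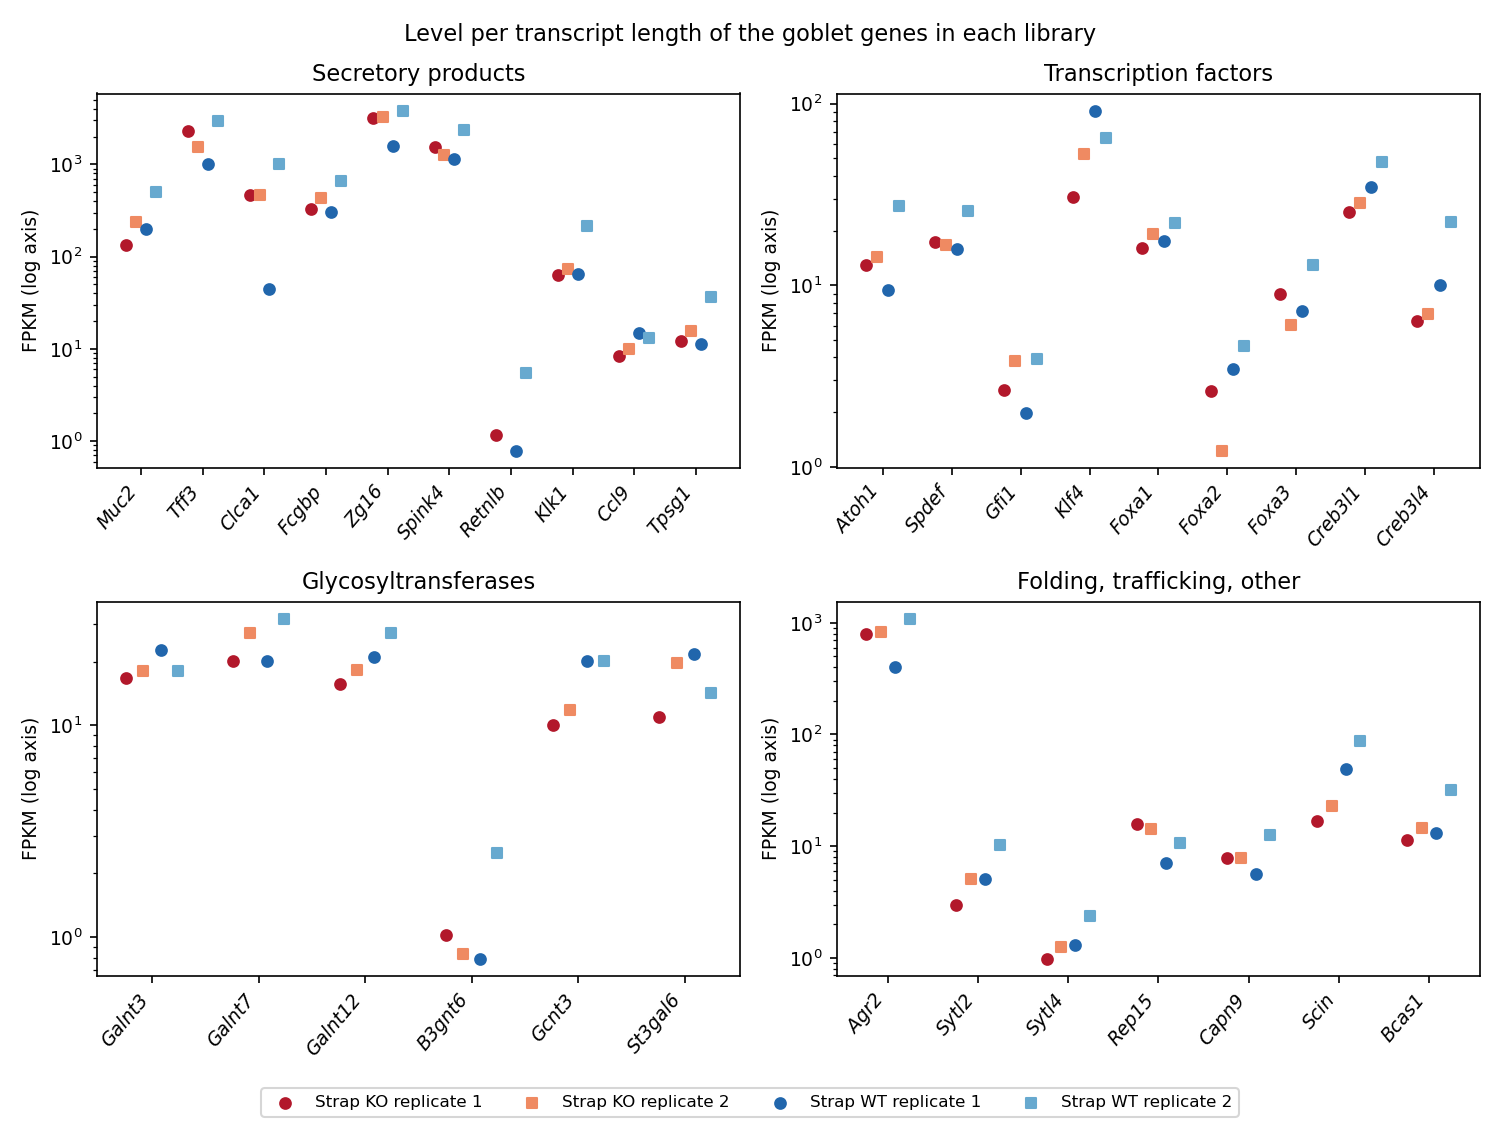
FPKM (log axis) of each listed goblet gene in each library, by role; circles are replicate 1 and squares replicate 2, KO left of WT. Products span from about the level of Retnlb to that of Zg16, and most genes are highest in WT replicate 2; Retnlb has no point in KO replicate 2, where it was not listed.

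Among the secretory products, none was called by the test, and 8 of 10 had a fitted difference below 0, with a median log2 fold change of -0.44. Zg16, a lectin that binds Gram-positive bacteria, was the highest goblet gene per length, with 3218 and 3274 FPKM in KO adenomas, against 1575 and 3846 FPKM in WT adenomas. Both KO levels fell within the WT range, and its log2 fold change was 0.30 (SE 0.46, edgeR adjusted p = 0.783). Tff3, the intestinal trefoil peptide, had 2309 and 1551 FPKM in KO adenomas, against 1000 and 2932 FPKM in WT adenomas, with a log2 fold change of 0.03 (SE 0.55). Here again the KO libraries lay between the WT libraries. Spink4, a Kazal-type protease inhibitor, had 1527 and 1271 FPKM in KO and 1149 and 2345 FPKM in WT adenomas. Zg16, Tff3 and Spink4 together accounted for most of the summed product level in every library, and Zg16 alone for 39.9% and 44.7% of it in KO against 36.1% and 33.2% in WT adenomas.

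Muc2, the gel-forming mucin that is the scaffold of intestinal mucus (chr7:141690340-141754691), had 15166 and 24638 expected counts in KO adenomas, against 22814 and 56367 in WT adenomas. KO replicate 2 lay above WT replicate 1, so the genotypes overlapped. The log2 fold change was -0.92 (SE 0.52, edgeR adjusted p = 0.441, DESeq2 adjusted p = 0.278). Per length, Muc2 stood at 132 and 239 FPKM in KO and 202 and 505 FPKM in WT adenomas, below Zg16, Tff3 and Spink4 in each library; this scale rests on the deposited transcript length of 7368 bases. Fcgbp, a mucus protein with IgG Fc binding activity, had 325 and 431 FPKM in KO and 302 and 655 FPKM in WT adenomas, and its log2 fold change was -0.31 (SE 0.46). Set against Muc2 in the same library, Zg16 had 24.3 and 13.7 times the Muc2 FPKM in KO adenomas, against 7.80 and 7.62 times in WT adenomas. The ratio was higher in both KO libraries than in either WT library, and it was not tested. This order was not particular to Zg16: it also held for Tff3, Fcgbp and Agr2, among others, but not for Spink4 or Clca1.

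Clca1, the secreted metalloprotease that processes the mucin gel (chr3:145004537-145032776), had the widest spread between the WT libraries. It had 20824 and 18907 expected counts in KO adenomas, against 1966 and 44641 in WT adenomas. The WT libraries differed 23.0-fold in scaled CPM, with the KO libraries between them at 1422 and 1288 CPM, against 126 and 2897 CPM in WT adenomas. The fitted log2 fold change of -0.16 carried an SE of 1.17 (edgeR adjusted p = 0.962). Without WT replicate 2, where the lone WT library is assumed to vary like the others, the log2 fold change was 3.44 (edgeR adjusted p = 0.0126), in a fit that called 0.531% of all tested genes higher and 2.21% lower; without WT replicate 1 it was -1.11. The direction of the Clca1 difference thus turned on which WT library was kept.

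The remaining products were lower in level. Klk1, a tissue kallikrein, was at 60.4 and 63.0 CPM in KO and 57.7 and 191 CPM in WT adenomas. Tpsg1, a transmembrane tryptase, was at 15.2 and 17.2 CPM in KO and 12.9 and 41.1 CPM in WT adenomas. Both genes had a KO range within the WT range. Retnlb, the resistin-like product of goblet cells, had 12 expected counts in KO replicate 1 and no entry in KO replicate 2, against 8 and 54 expected counts in WT adenomas; no fold is given at these counts. Ccl9, a chemokine, was the product whose genotypes did not overlap, with 26.6 and 28.2 CPM in KO against 43.4 and 37.8 CPM in WT adenomas (log2 fold change -0.57, SE 0.20, edgeR adjusted p = 0.279).

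**Figure D2:**
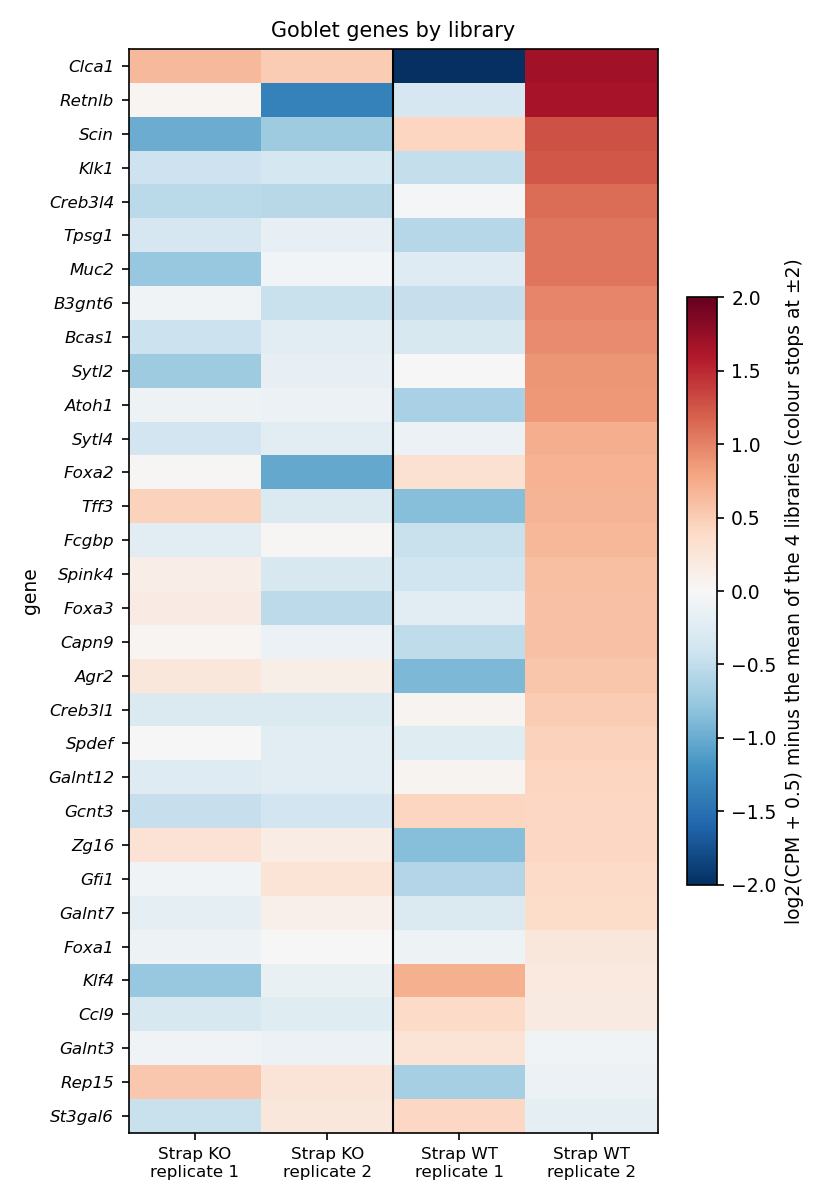
Colour gives log2(CPM + 0.5) of each tested goblet gene in each library minus its mean over the 4 libraries (red above, blue below, stopping at 2), KO columns left of WT; genes are ordered by WT replicate 2. WT replicate 2 is the reddest column for 26 of the 32 genes; the value of Retnlb in KO replicate 2, where it was not listed, is drawn from 0 CPM.

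The library that stood apart for this program was WT replicate 2. It held the highest value of 26 of the 32 goblet genes, against 21.4% of all tested genes, and the lowest of none. WT replicate 1 held the lowest value of 15, against 29.1% of all tested genes. For 14 genes both KO libraries lay between a lower WT replicate 1 and a higher WT replicate 2, an arrangement seen in 5.54% of all tested genes. These 14 genes included 7 of the 10 products. The WT libraries differed by over 2-fold for 16 goblet genes, against 14.1% of all tested genes, and the KO libraries for 2, against 11.8%. The median log2 difference between replicate 2 and replicate 1 over the goblet genes was 0.06 in KO adenomas and 0.97 in WT adenomas, against -0.04 and 0.00 over all tested genes. By Xist and Ddx3y, replicates 1 and 2 also differed in sex in each genotype, and the part of sex in these values was not tested.

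Markers of other cell types moved with these libraries. Of 13 Paneth cell markers 12 were tested and Defa30 was listed nowhere; 11 of the 12 were highest in WT replicate 2, and the list shares Itln1 and Ang4 with the further goblet markers below. Absorptive cell markers ran the other way, with 10 of 12 lowest in WT replicate 2 and sums of 28490 and 29710 CPM in KO against 33560 and 17380 CPM in WT adenomas. Gastric and Brunner gland mucous markers, 9 listed and 2 tested, summed to 0.273 and 1.57 CPM in KO adenomas, against 504 and 5.52 CPM in WT adenomas, with Muc5ac listed in neither KO library and Muc6 at 404 CPM in WT replicate 1. Endothelial markers, 6 listed and 3 tested, summed to 2.94 and 3.34 CPM in KO against 42.9 and 4.74 CPM in WT adenomas. In WT replicate 1, Cdh5 gave 35.6 CPM of that sum and Vwf 4.81 CPM. Pecam1, Kdr, Tie1 and Esam were at only 0.513, 0.321, 0.449 and 1.16 CPM in that library. T and NK cell markers, 8 listed and 7 tested, summed to 30.5 and 276 CPM in KO against 50.4 and 35.5 CPM in WT adenomas. General epithelial markers varied less, with sums of 13870 and 10520 CPM in KO and 12410 and 13940 CPM in WT adenomas. The part of these cell types in the goblet gene values was not tested.

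Among the 9 transcription factors, 8 had a fitted difference below 0, with a median log2 fold change of -0.41, and 4 had both KO values beneath both WT values, against 24.6% of all tested genes. These 4 were Klf4, Creb3l4, Creb3l1 and Foxa2. Klf4, a zinc-finger factor of goblet cells and other differentiating epithelium (chr4:55527137-55532475), had 1443 and 2218 expected counts in KO adenomas, against 4240 and 2941 in WT adenomas. Both KO libraries were lower, and Klf4 was among 5 goblet genes highest in WT replicate 1. At 98.6 and 151 CPM in KO and 272 and 191 CPM in WT adenomas, the KO level was 54.0% of WT (log2 fold change -0.89, SE 0.31, edgeR adjusted p = 0.273, DESeq2 adjusted p = 0.107).

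Creb3l4, a bZIP factor anchored in the endoplasmic reticulum membrane, had 138 and 137 expected counts in KO adenomas, against 213 and 476 in WT adenomas. The KO libraries were nearly equal and lay below both WT libraries, which differed 2.26-fold from each other. Its KO level was 42.1% of WT (log2 fold change -1.25, SE 0.43, edgeR adjusted p = 0.273). The log2 fold change was -0.52 without WT replicate 2 and -1.73 without WT replicate 1. Creb3l1, a factor of the same family, was at 60.2 CPM in both KO libraries, against 76.5 and 105 CPM in WT adenomas (log2 fold change -0.59, SE 0.22, edgeR adjusted p = 0.297). Foxa2, a forkhead factor, was at 5.60 and 2.45 CPM in KO against 6.87 and 9.21 CPM in WT adenomas (log2 fold change -1.0, SE 0.53).

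The factors at the head of the lineage overlapped between genotypes. Atoh1, the bHLH factor that commits progenitors to a secretory fate (chr6:64729125-64731245), was at 28.4 and 28 CPM in KO adenomas, against 19.2 and 55.6 CPM in WT adenomas, with a log2 fold change of -0.41 (SE 0.48, edgeR adjusted p = 0.706). Spdef, the ETS factor of goblet cell maturation, was at 32.5 and 28.1 CPM in KO adenomas, against 27.6 and 44.8 CPM in WT adenomas (log2 fold change -0.26, SE 0.29). For Atoh1 and Spdef alike, both KO libraries lay between the WT libraries. Gfi1, a zinc-finger repressor that acts downstream of Atoh1, was at 7.51 and 9.68 CPM in KO and 5.13 and 10.5 CPM in WT adenomas. The forkhead genes Foxa1 and Foxa3 had log2 fold changes of -0.13 and -0.39 and overlapped too.

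Promoters, from 250 bases before to 50 after the annotated start in RefSeq on GRCm38.p6, were matched for 20 of the 33 goblet genes. They were searched on both strands for letters that the program's own factor classes are known to bind: CAGCTG and CATCTG (E-boxes, bHLH), TGTTTAC and TGTTTGC (forkhead), GGGTGTG (KLF), CCGGAT (ETS) and TGACGT (the core of the cAMP response element, bZIP). No matches of different motifs overlapped in these promoters. GGGTGTG was found in 7 of the 20 (35%), namely Muc2, Fcgbp, Klk1, Foxa1, Foxa3, Creb3l4 and Agr2, against 9.05% of the 27025 genes with a promoter. CAGCTG was found in 4 of 20 (20%), against 18.3%, and CATCTG in 3 (15%), against 19.2%. CCGGAT was found in 3 (15%), against 6.82%. Of the remaining motifs, TGTTTAC was found in 1 promoter (5%), against 4.05%, the letters TGTTTGC in 1 (5%), against 5.76%, and the letters TGACGT in 1 (5%), against 8.37%. A match is a description of letters, not a binding site, and genes with several annotated starts had more bases searched.

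Of these promoters 4 are printed, 5′ to 3′ on the gene's strand with matched letters in capitals: Muc2 and Agr2 as a mucin and its folding enzyme that share GGGTGTG, Klf4 as a factor of the class that gives that motif its name, and Scin as the goblet gene with the smallest p. These windows lie at chr7:141690090-141690389 (plus strand), chr12:35992675-35992974 (plus strand), chr4:55532426-55532725 (minus strand) and chr12:40134179-40134478 (minus strand). Klf4 holds CAGCTG without GGGTGTG, Muc2 holds both, and none of the motifs searched was found in the Scin window.
Muc2: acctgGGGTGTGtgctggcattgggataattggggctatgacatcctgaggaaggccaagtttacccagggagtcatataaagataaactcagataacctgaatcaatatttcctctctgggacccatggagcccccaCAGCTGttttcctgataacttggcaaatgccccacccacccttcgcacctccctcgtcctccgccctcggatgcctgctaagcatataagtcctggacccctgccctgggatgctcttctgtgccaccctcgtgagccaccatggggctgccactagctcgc
Agr2: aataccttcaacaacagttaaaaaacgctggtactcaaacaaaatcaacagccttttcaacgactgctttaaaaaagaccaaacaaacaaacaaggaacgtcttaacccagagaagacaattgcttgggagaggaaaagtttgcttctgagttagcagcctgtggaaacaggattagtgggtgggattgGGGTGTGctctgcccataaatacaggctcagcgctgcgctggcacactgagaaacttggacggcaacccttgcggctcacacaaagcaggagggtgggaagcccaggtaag
Klf4: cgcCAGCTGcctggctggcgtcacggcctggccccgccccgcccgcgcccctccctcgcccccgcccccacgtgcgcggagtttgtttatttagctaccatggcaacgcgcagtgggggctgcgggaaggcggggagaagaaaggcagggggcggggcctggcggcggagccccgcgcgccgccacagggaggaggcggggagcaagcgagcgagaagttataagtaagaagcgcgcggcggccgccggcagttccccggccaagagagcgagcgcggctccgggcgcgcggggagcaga
Scin: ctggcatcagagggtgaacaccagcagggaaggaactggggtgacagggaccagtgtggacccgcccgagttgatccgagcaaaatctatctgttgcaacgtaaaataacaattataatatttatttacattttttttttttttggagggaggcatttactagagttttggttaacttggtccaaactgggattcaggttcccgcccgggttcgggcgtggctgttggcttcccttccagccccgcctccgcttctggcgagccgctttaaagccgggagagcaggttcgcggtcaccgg

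All 6 glycosyltransferases had a fitted difference below 0, with a median log2 fold change of -0.35. Gcnt3, which builds core 2 and core 4 branches on mucin O-glycans (chr9:70031495-70039890), had 666 and 707 expected counts in KO adenomas, against 1327 and 1303 in WT adenomas. Libraries of the same genotype were nearly equal and the genotypes did not overlap. At 45.5 and 48.2 CPM in KO against 85.1 and 84.6 CPM in WT adenomas, the KO level was 55.2% of WT. The log2 fold change was -0.86 (SE 0.18), which missed the threshold in edgeR (adjusted p = 0.185) and passed it in DESeq2 (adjusted p = 0.0186). With each library left out in turn it ranged from -0.90 to -0.81.

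The GalNAc transferases had smaller fitted differences than Gcnt3. Galnt12 was at 36.2 and 37.6 CPM in KO adenomas, against 45.0 and 58.5 CPM in WT adenomas, without overlap (log2 fold change -0.49, SE 0.22, edgeR adjusted p = 0.343). Galnt3 was at 64.9 and 62.6 CPM in KO adenomas, against 82.1 and 64.7 CPM in WT adenomas, and Galnt7 at 92.6 and 113 CPM in KO adenomas, against 85.7 and 136 CPM in WT adenomas. For Galnt3 the lower WT library was within the KO range, and for Galnt7 the KO range lay within the WT range. B3gnt6, the core 3 synthase, was low, with 37 and 27 expected counts in KO against 28 and 88 in WT adenomas. St3gal6, a sialyltransferase, was at 18.0 and 29.0 CPM in KO and 33 and 21.5 CPM in WT adenomas, with overlap.

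In the folding and trafficking group, 5 of 7 tested genes had a fitted difference below 0, with a median log2 fold change of -0.74. Scin, a calcium-dependent protein that severs actin filaments (adseverin; chr12:40059769-40134228), had 776 and 941 expected counts in KO adenomas, against 2224 and 3924 in WT adenomas. Both KO libraries were well below both WT libraries. At 53.0 and 64.1 CPM in KO against 143 and 255 CPM in WT adenomas, the KO level was 29.5% of WT. The log2 fold change was -1.76 (SE 0.33), with an adjusted p of 0.150 in edgeR and 9.81e-05 in DESeq2, and it ranged from -2.14 to -1.27 with each library left out in turn. Tuft cell markers, 11 listed and 9 tested, were also lower in sum. They summed to 32 and 9.68 CPM in KO against 85.2 and 150 CPM in WT adenomas. Avil alone gave 55.1 CPM of the sum in WT replicate 1. Both KO values were beneath both WT values for 7 of the 9, against 24.6% of all tested genes, and 2 overlapped. One that overlapped was Dclk1, at 9.9 CPM in KO replicate 1 and 7.6 CPM in WT replicate 1. Il25 was listed in WT replicate 2 alone. The part of tuft cells in the Scin values was not tested.

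Rep15, which encodes an effector of the endosomal GTPase Rab15 (chr6:147032537-147033518), was the goblet gene with both KO libraries above both WT libraries, an order found in 25.5% of all tested genes. It had 228 and 185 expected counts in KO adenomas, against 100 and 148 in WT adenomas. Its level was 15.6 and 12.6 CPM in KO against 6.42 and 9.60 CPM in WT adenomas, a 1.76-fold difference (log2 fold change 0.81, SE 0.36, edgeR adjusted p = 0.338). Agr2, the disulfide isomerase needed for Muc2 folding, was the highest gene of this group, at 797 and 835 FPKM in KO adenomas, against 398 and 1089 FPKM in WT adenomas. The KO libraries were close to each other and within the WT range (log2 fold change 0.17, SE 0.48).

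Sytl2 and Sytl4, effectors of Rab27 in granule docking, were lower in level. Sytl2 was at 13.6 and 20.1 CPM in KO adenomas, against 22.3 and 42.1 CPM in WT adenomas (log2 fold change -0.93, SE 0.38, edgeR adjusted p = 0.318). Sytl4 was at 3.62 and 4.09 CPM in KO adenomas, against 4.43 and 8.44 CPM in WT adenomas (log2 fold change -0.74, SE 0.49). Neither gene overlapped between genotypes in scaled CPM, but in FPKM KO replicate 2 had 5.11 for Sytl2 against 5.04 in WT replicate 1. Capn9, a calpain protease, was at 19.1 and 17.1 CPM in KO and 12.8 and 28.2 CPM in WT adenomas, and Bcas1 at 35.0 and 40.6 CPM in KO and 37.7 and 91.6 CPM in WT adenomas, each with overlap.

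**Figure D3:**
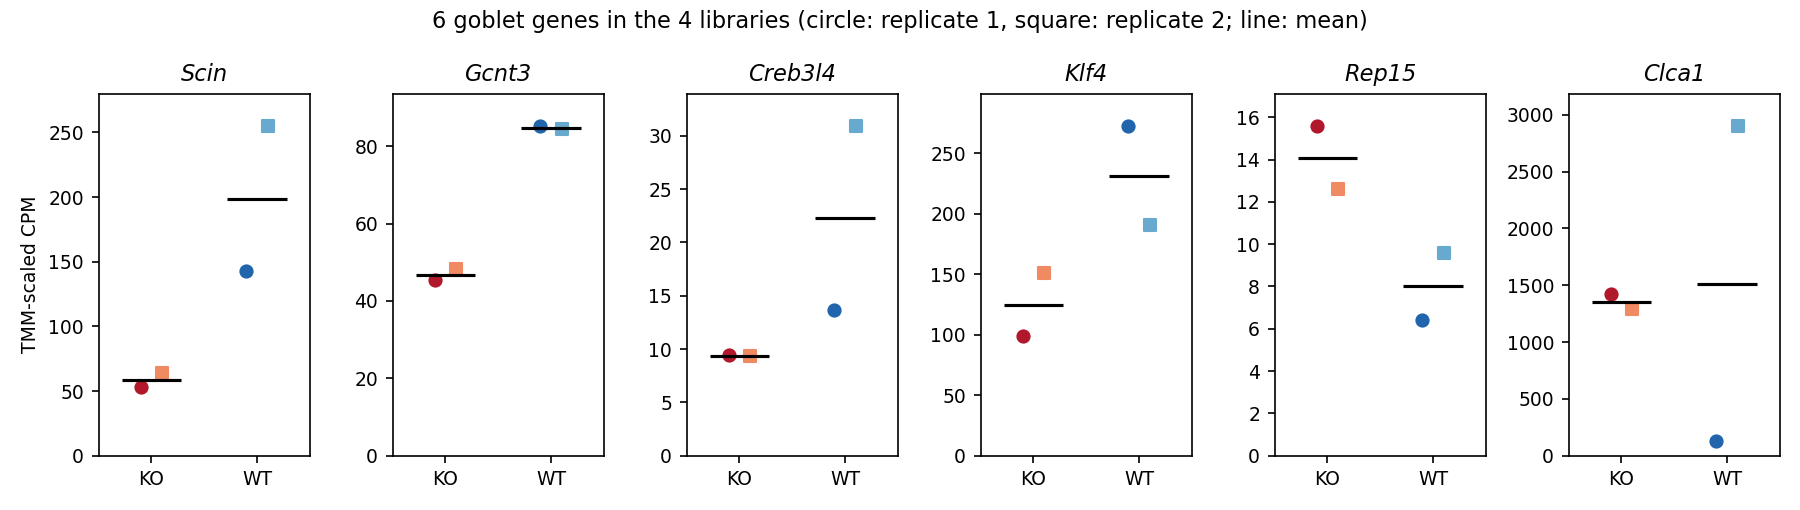
Scaled CPM (linear axis from 0, a scale of its own per gene) of 6 goblet genes in each library, KO left of WT; circles are replicate 1, squares replicate 2 and the line the mean of the 2 libraries. Scin, Gcnt3, Creb3l4 and Klf4 are lower and Rep15 higher in both KO libraries, while for Clca1 the WT libraries sit at 126 and 2897 CPM with the KO libraries between them.

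Across all 32 tested genes, both KO values were beneath both WT values for 10 and above them for 1, and 21 overlapped. Over all tested genes these shares were 24.6% beneath and 25.5% above. The 10 genes were Ccl9, Klf4, Foxa2, Creb3l1, Creb3l4, Galnt12, Gcnt3, Sytl2, Sytl4 and Scin. Their adjusted p in edgeR lay between 0.150 and 0.503. Of the 10 genes, 1 encodes a secreted product, 4 transcription factors, 2 glycosyltransferases and 3 trafficking or cytoskeletal proteins. In FPKM the count was also 10, of which 9 were the same genes, with Galnt3 in place of Sytl2, and Rep15 was again the 1 above; all tested genes gave 24.7% beneath and 24.7% above on that scale.

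**Figure D4:**
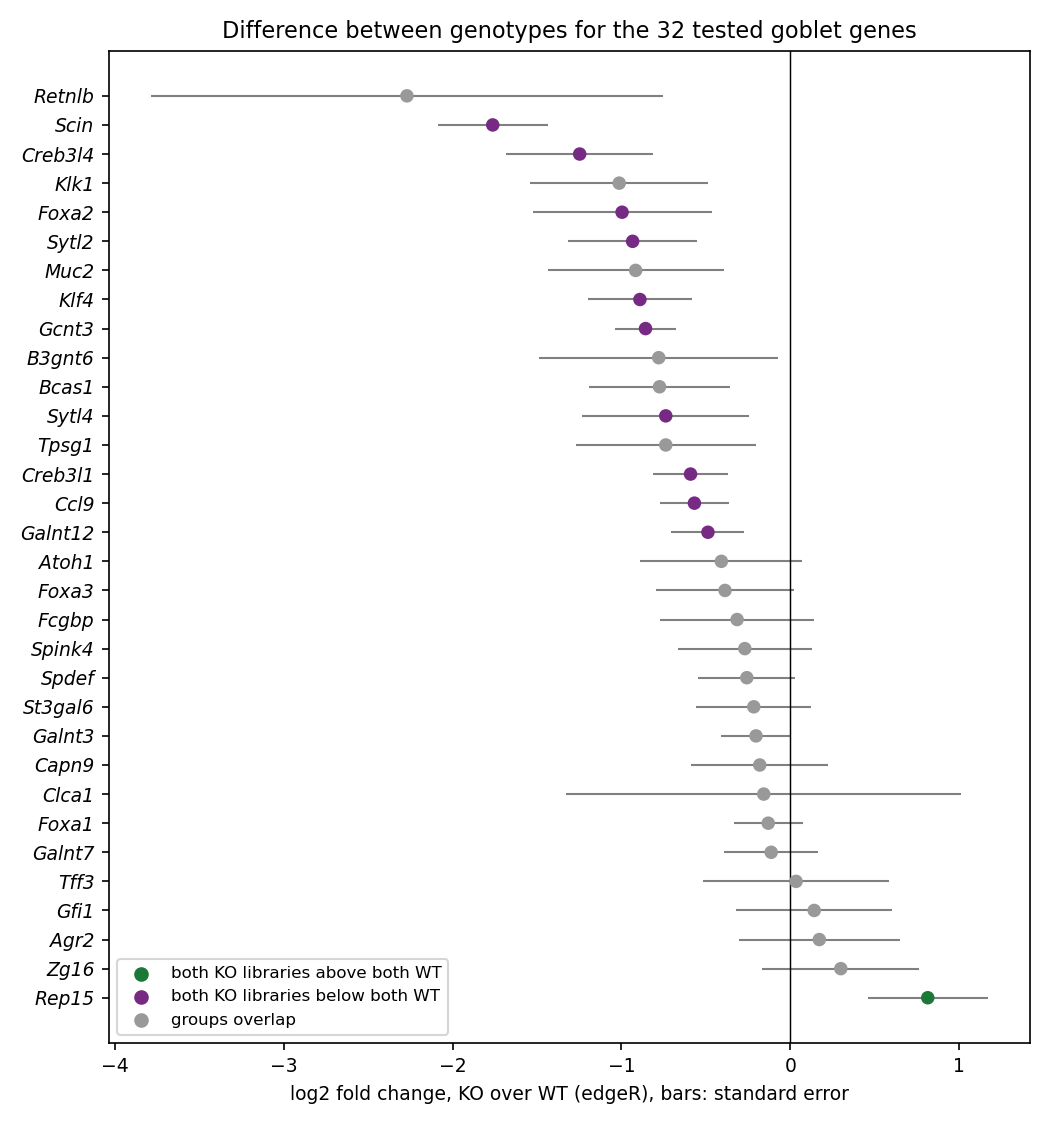
Points give the edgeR log2 fold change, KO over WT, of each of the 32 tested goblet genes, with bars of 1 standard error; colour tells whether the libraries of the genotypes overlap. Values run from -1.76 for Scin to 0.81 for Rep15, apart from Retnlb, whose fitted value rests on a KO library that does not list it.

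The direction of many of these differences turned on which WT library was kept. Without WT replicate 2 the median log2 fold change of the goblet genes was 0.09, and without WT replicate 1 it was -0.77. With all 4 libraries it was -0.45. Muc2 ranged from -1.45 to -0.09 over the fits that left out 1 library, and Agr2 from -0.39 to 1.08. Scin, Gcnt3, Klf4, Creb3l1, Creb3l4 and Galnt12 stayed below 0 in each of these fits and Rep15 stayed above 0. The genotypes did not overlap for these genes, so leaving out 1 library could hardly change the sign. A kept sign therefore adds no support. The size of several of these differences still moved: Klf4 ranged from -1.23 to -0.61, Creb3l1 from -0.82 to -0.33, Galnt12 from -0.68 to -0.27 and Rep15 from 0.54 to 1.15. Foxa2 ranged from -1.70 to -0.52, Sytl2 from -1.34 to -0.39 and Sytl4 from -1.14 to -0.18.

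**Figure D5:**
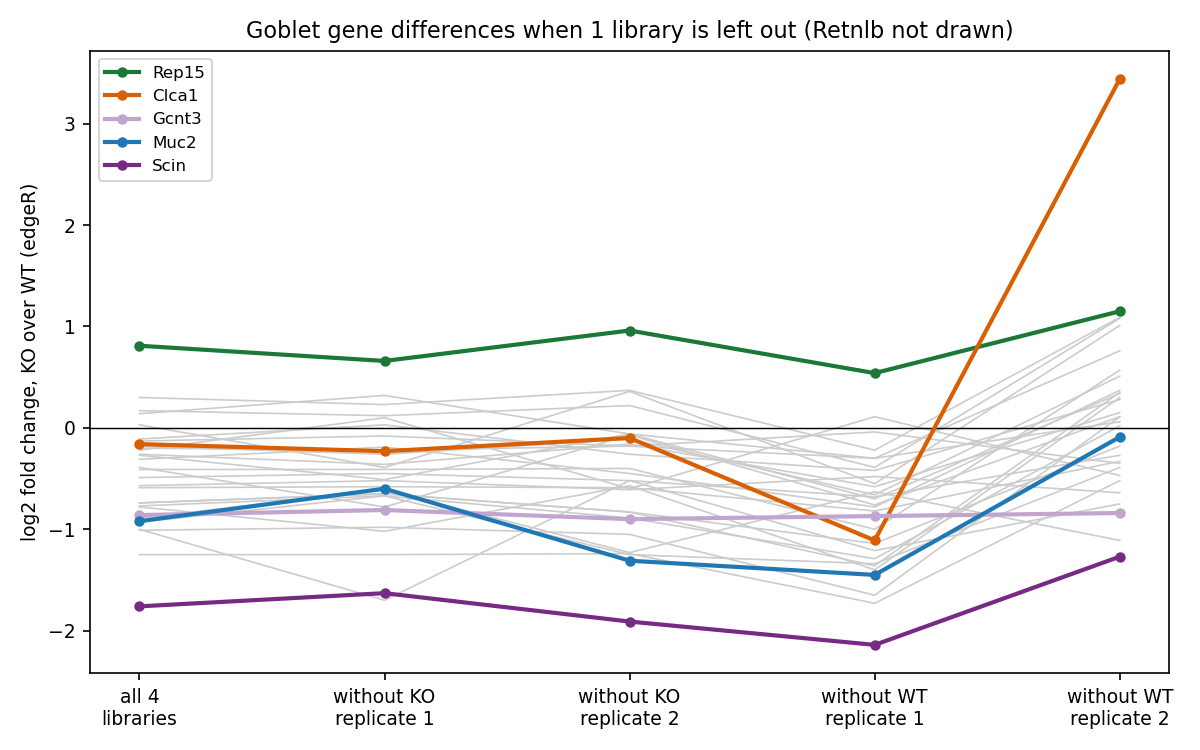
Lines join the edgeR log2 fold change, KO over WT, of each goblet gene with all 4 libraries and with each library left out in turn (Retnlb not drawn). Scin and Gcnt3 stay below 0 and Rep15 above it, while Clca1 lies at -1.11 without WT replicate 1 and at 3.44 without WT replicate 2. The genotypes do not overlap for Scin, Gcnt3 and Rep15, so leaving out 1 library could hardly change their sign.

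Further goblet markers outside the 33 genes had a median below 0 too. Of 28 fixed, 27 were tested, 7 with a difference above 0 and 20 below, with a median log2 fold change of -0.44; edgeR called none, DESeq2 called 1 lower, against 3.26% of all genes it tested, and at an unadjusted p under 0.05 there were 1 higher and 5 lower, against 7.08% and 8.69% of all tested genes. Both KO values were beneath both WT values for 12 and above them for 4, against 24.6% and 25.5% of all tested genes. WT replicate 2 held the highest value of 17 of the 27 here too, against 21.4% of all tested genes. The median log2 difference, KO over WT, was 0.10 between the libraries numbered 1 and -0.54 between those numbered 2. Guca2a, the hormone guanylin, was at 298 and 225 CPM in KO adenomas, against 439 and 634 CPM in WT adenomas (log2 fold change -1.04, edgeR adjusted p = 0.239, DESeq2 adjusted p = 0.0212). Ern2, the endoplasmic reticulum stress sensor of mucus-secreting cells, was at 17.1 and 20.2 CPM in KO adenomas, against 32.2 and 41.2 CPM in WT adenomas (log2 fold change -0.98, edgeR adjusted p = 0.211). Hpd was at 14.2 and 11.9 CPM in KO against 20.5 and 38.1 CPM in WT adenomas. These 3 genes were named for the smallest p of the list, a choice that favours genes without overlap, and none overlapped between genotypes.

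Other mucin O-glycan genes were divided in direction, with 12 above 0 and 16 below among 28 tested and a median log2 fold change of -0.06. None was called by edgeR, and 3 were called lower and none higher by DESeq2, against 3.26% and 1.77% of all genes it tested. At an unadjusted p under 0.05 there were 2 higher and 7 lower, against 7.08% and 8.69% of all tested genes. Gcnt1, another core 2 branching enzyme, was at 2.53 and 2.32 CPM in KO adenomas, against 6.67 and 9.73 CPM in WT adenomas (log2 fold change -1.76, edgeR adjusted p = 0.215, DESeq2 adjusted p = 0.038). Its difference had the same sign as that of Gcnt3. Gcnt4, of the same gene family, was at 116 and 114 CPM in KO against 124 and 109 CPM in WT adenomas. The genotypes overlapped for Gcnt4, with a log2 fold change of -0.03. St3gal3, a sialyltransferase, was at 4.17 and 3.82 CPM in KO adenomas, against 10.2 and 13.3 CPM in WT adenomas (log2 fold change -1.56, edgeR adjusted p = 0.210, DESeq2 adjusted p = 0.0242). B3gnt2, which extends poly-N-acetyllactosamine chains, was at 37.3 and 37.4 CPM in KO adenomas, against 24.8 and 21.0 CPM in WT adenomas (log2 fold change 0.70, edgeR adjusted p = 0.249).

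Of 20 Notch pathway and secretory fate genes, all tested, 16 had a difference below 0 and 4 above, with a median log2 fold change of -0.32. Neither edgeR nor DESeq2 called any of them, and 1 was lower and none higher at an unadjusted p under 0.05, against 8.69% and 7.08% of all tested genes. The receptors Notch1 and Notch2 had log2 fold changes of -0.55 and -0.45 (edgeR adjusted p = 0.353 and 0.393), and Lfng, which modifies Notch receptors with sugar, had -1.14 (edgeR adjusted p = 0.289).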

How the data were processed

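The authors deposited 1 table per library. Per the file headers, each holds RSEM expected counts per gene and, in the same deposited table, FPKM and transcript length. Bowtie2 2.2.5, RSEM 1.2.12 and mm10 are named in the submitters' processing notes, with no role or order. RNA was poly(A)-selected and read as 100-base pairs on a BGISEQ-500, per the labels' protocols; whether counting used strand is not given here. The lowest listed FPKM was 0.01, so an absent gene is called not listed.

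Tables were joined on Entrez identifiers with pandas 2.3.3, 25 symbols turned into dates were restored by identifier, and 1 row without a gene per library, at most 0.000233% of counts, was left out. Expected counts were rounded; 4 goblet genes (Klk1, Tpsg1, Ccl9 and Fcgbp) had fractional ones. KO was compared with WT in edgeR 4.0.16 (R 4.3.3) by the quasi-likelihood test with genotype alone, TMM scaling and filterByExpr, with Benjamini-Hochberg adjustment over 12769 genes and a threshold of 0.05. The biological coefficient of variation was 32.5%. CPM values are TMM-scaled. Coordinates are from RefSeq on GRCm38.p6 (mm10). Replicates were not one library deposited again: chi-square over its degrees of freedom was 62.2 between the KO and 124 between the WT libraries.

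The goblet genes, the other lists and the tests were chosen with earlier results of these data known. All 33 goblet genes are reported, and of each further goblet, O-glycan and Notch list the 3 tested genes with the smallest p. Xist, Ddx3y, Gcnt4, the colon markers and the other marker genes named were chosen after their values were seen. Alternatives were DESeq2 1.42.0, limma 3.58.1 on log2(FPKM + 1) and log2(FPKM + 0.1), other scalings and filters, a replicate block, and leaving out each library. The test was checked on simulated counts.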

Additional observations from a re-analysis of the deposited data

How the results depend on the processing

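No goblet gene was called by edgeR under either other scaling, either other filter, or limma on either FPKM scale. DESeq2 called 2 (Gcnt3 and Scin, both lower) and the fit with the replicate block 1 (Scin, lower, adjusted p = 0.0453); the cause was not tested. Leaving out 1 library gave 0 to 1 called, the 1 being Clca1, higher, without WT replicate 2, where 0.531% of all tested genes were called higher and 2.21% lower. The median log2 fold change ranged from -0.77 to 0.09 with 1 library left out. The count of genes whose genotypes did not overlap ranged from 14 to 31 in those fits, in which fewer libraries have to agree. Without WT replicate 1 it was 1 above and 30 beneath (all tested genes: 36.4% and 37.2%), without WT replicate 2 it was 16 above and 12 beneath (38.6% and 39.8%). Without KO replicate 1 it was 1 above and 13 beneath (35.3% and 34.4%), and without KO replicate 2 it was 1 above and 15 beneath (37.5% and 40.2%). Tff3 changed sign with library size alone (-0.02) and with at least 50 counts in at least 2 libraries (-0.01). Clca1 changed sign with limma (1.12 with a pseudocount of 1, 1.13 with 0.1), with the replicate block (1.16) and with the crossed block (1.16). B3gnt6 and Retnlb had no value under the 50-count filter.

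With 1 library left out, 18 goblet genes changed sign at least once, 13 of them without WT replicate 2, 5 without WT replicate 1, 3 without KO replicate 1 and 1 without KO replicate 2. Their log2 fold changes ranged as follows: Tff3 -0.55 to 1.01, Clca1 -1.11 to 3.44, Fcgbp -0.78 to 0.37, Zg16 -0.22 to 1.09, Spink4 -0.70 to 0.34, Klk1 -1.65 to 0.11, Tpsg1 -1.36 to 0.35, Atoh1 -1.0 to 0.57, Spdef -0.58 to 0.15, Gfi1 -0.30 to 0.76, Foxa1 -0.30 to 0.06, Foxa3 -0.78 to 0.11, Galnt7 -0.42 to 0.28, B3gnt6 -1.40 to 0.30, St3gal6 -0.60 to 0.11, Agr2 -0.39 to 1.08, Capn9 -0.66 to 0.51 and Bcas1 -1.29 to 0.02.

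The genotypes share replicate numbers, but the labels do not say what a number marks. By Xist and Ddx3y the number went with sex in both genotypes, so replicate and sex cannot be told apart. Deviations of same-numbered libraries correlated at -0.134 over 12769 genes. Over all genes, edgeR called 1 without the block and 116 with the replicate block. The crossed pairing, added after the data were seen, called 164 genes and no goblet gene. Depth limits Retnlb, B3gnt6, Foxa2 and Sytl4, which had few counts.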
